A study of Drosophila melanogaster with 6 samples.

Results

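The genes described here encode the proteins of the cytosolic ribosome, together with paralogues and relatives that carry the same names. They were taken as the probe sets assigned to 1 gene whose symbol begins with RpL or RpS, or is sta, with the probe set of highest mean kept for each gene. This gave 41 genes of the 11982 genes with such a probe set. The current RefSeq gene table lists 93 genes with these symbols. The other 52, sta among them, are not analysed here. Transcripts were measured on Affymetrix arrays in Drosophila S2 cells, a macrophage-like line of embryonic origin, after 1 h at 25 °C. The 3 cultures of one group received medium alone and the 3 of the other received apoptotic cell fragments at 25 per cell. Per the labels, the fragments were prepared from S2 cells treated with cycloheximide at 1.5 µg/ml for 24 h. Cells were maintained in 10% serum. All 6 cultures shared the incubation in 1% serum and the detachment with trypsin and EDTA. The comparison of fragments with medium alone asks which transcripts differ in these phagocytes after contact with apoptotic material.

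The ribosome joins a small subunit, which reads the messenger RNA, to a large subunit, which forms peptide bonds, and each subunit is a shell of ribosomal proteins on ribosomal RNA. Messenger RNAs for these proteins are among the most abundant in growing cells, and in Drosophila the loss of 1 copy of many of the genes gives the Minute phenotype of slow growth and thin bristles. Several Drosophila ribosomal protein genes have a second copy that is expressed mainly in the germ line. A few others, named -like, are relatives of yeast proteins that act in the assembly of ribosomal subunits and are not part of the finished ribosome.

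The 41 genes were placed in 3 classes. The 30 structural genes encode 19 large-subunit and 11 small-subunit proteins. The 3 homologues of assembly factors are RpLP0-like, RpL24-like and RpL7-like. The remaining 8 are second copies: RpS5b, RpS10a, RpS19b, RpL22-like, RpL10Aa, RpL37-2, RpS28a and RpS28-like. Where both copies of a pair were measured, the copy that read higher was counted as structural, so the low readings of RpL10Aa, RpL37-2, RpS28a and RpS28-like follow in part from that choice.

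The files hold 1 log2 value per probe set and array, called its reading here. Readings of different probe sets depend on how well each hybridises, so their order describes the array and is not an order of transcript amounts. Array medians lay between 6.45 and 6.46 over the 18769 probe sets tested. Many probe sets are flat, which means that their reading moved by less than 0.01 over the 6 arrays, and the other 7241 are called varying. Medium-alone replicate 3 stood apart, correlating with the other arrays of its group at r = 0.99 and 0.9907 across probe sets, while those correlated with each other at 0.9993. The labels call the replicates biological. RNA carried over with the fragments is S2 cell RNA too, and its share in a reading cannot be told apart from the RNA of the phagocytes, just as fewer cells cannot be told apart from less RNA per cell. Of 11 hemocyte markers, Col4a1, vkg, srp, crq, ush, Hml and drpr read 11.20, 11.19, 10.83, 9.70, 9.49, 9.30 and 9.10 on average. Lower readings were those of eater and Pxn, at 6.91 and 6.85. NimC1 and gcm had flat readings of 6.09 and 6.13, under what flat probe sets read at the median (6.23). One of the 11, crq, a receptor for apoptotic cells, fell by 0.80 among the varying probe sets (limma adjusted p = 0.00559, and 0.0698 in the whole-array test). Another, ush, differed by 0.63 with the groups apart and did not pass (adjusted p = 0.256 and 0.608), and the summed reading of the 11 ran from 94.0 to 98.6 in medium alone and from 96.4 to 97.1 with fragments. Markers of testis, muscle and fat body (5, 3 and 3 measured) were flat throughout, as were 2 of 3 neuron markers, while elav, the third, read 8.29 on average with overlapping groups.

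With limma and adjustment over all 18769 probe sets, 0 of the 41 genes passed an adjusted p of 0.05, against 57 probe sets or 0.304% of the whole array. Among the varying probe sets tested alone, 0 of 34 genes passed, against 6.85% of all varying probe sets. At an unadjusted limma p under 0.05 there were 2 of the 41 in the test over all probe sets and 3 of the 34 in the test over varying ones, against 10.8% and 23.6% of the probe sets. The median log2 difference of the 41 genes, fragments minus medium alone, was -0.00061, beside 0 for all tested probe sets and -0.0035 for the varying ones.

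**Figure D1:**
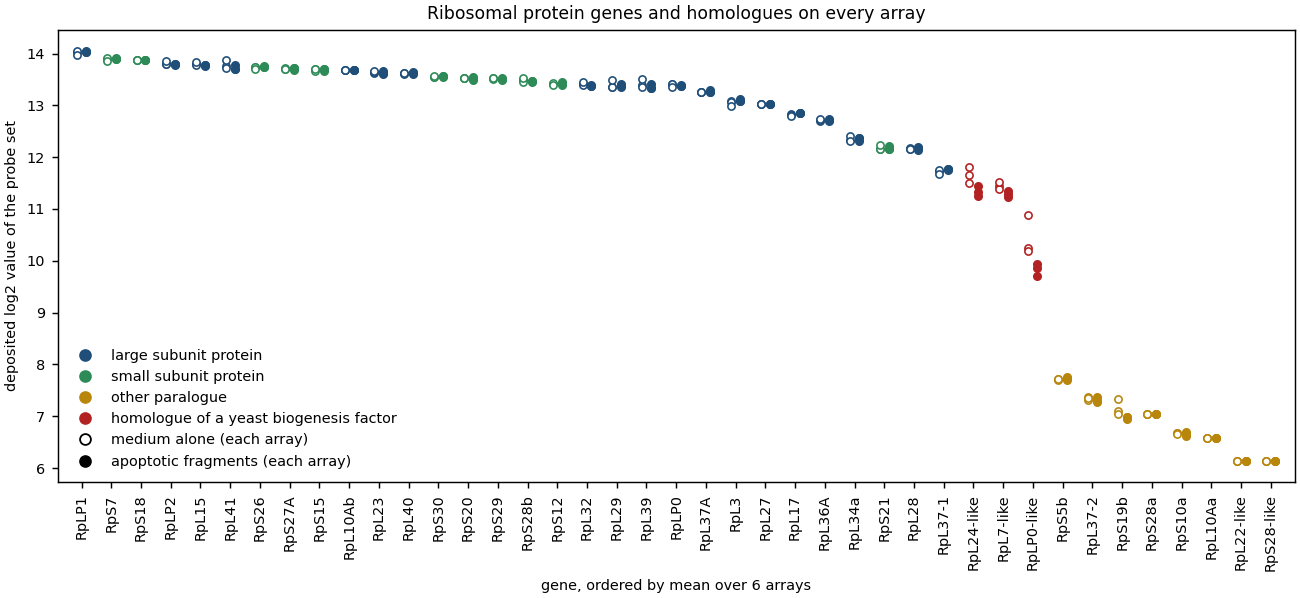
Deposited log2 value of each gene on each of the 6 arrays (open points, medium alone; filled points, fragments), ordered by the mean over the arrays. The 30 structural genes read between 11.75 and 14.03, the 3 homologues of assembly factors between 10.14 and 11.50, and the 8 other paralogues between 6.13 and 7.72.

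The structural genes were among the brightest on the array and their readings differed little between the groups. Their mean readings ran from 11.75 for RpL37-1 to 14.03 for RpLP1, and all 30 lay above the 95th percentile of all probe sets (10.30). Of the 97 probe sets that read 13 or more, 24 belonged to these genes. Their log2 differences lay between -0.060 and 0.049, with a median of -0.00031 and a median size of 0.015. The limma 95% confidence intervals over all probe sets reached from -0.197 to 0.134 at their extremes. On the deposited scale these limits, each for 1 gene and its kept probe set, correspond to 1.15-fold lower and 1.10-fold higher with fragments. Dimmer probe sets of RpL3 and RpS30, described below, differed by -0.63 and -0.21. The 3 flat genes of the class add nothing to these bounds. With each array set to its hybridisation spikes, 0.26 is added to every difference, which places all 30 structural genes above the upper bound of 0.134. RpL3 and RpL37-1 each differed by 0.31 there (limma adjusted p = 0.0737 for each in the whole-array test).

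Other probe sets near the top of the scale were about as steady. The array's highest mean reading was 14.08. Among probe sets that read 13 or more, a bound set after the values were seen, the 21 varying structural genes had a median difference in size of 0.0174 and the 66 varying probe sets of other genes one of 0.0173, at median readings of 13.56 and 13.57. A difference over 0.1 log2 units was found in 0 of those 21 and in 4 of those 66 (6.06%), against 49% of all varying probe sets. With the bound at the lowest structural gene instead, 41 of 194 other varying probe sets (21.1%) differed by more than 0.1. Of these 194, 1.03% passed limma among the varying probe sets. The 211 other probe sets above that bound, flat ones included, had a median reading of 12.47, against 13.49 for the structural genes. The varying structural genes that read under 13 were RpL17, RpL36A, RpL34a, RpS21, RpL28 and RpL37-1. They differed by 0.031, -0.00061, -0.0065, -0.0018, 0.0065 and 0.046. Whether the level of the readings accounts for the contrast was not tested. Whether readings near the top of the scale understate changes was not tested.

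**Figure D2:**
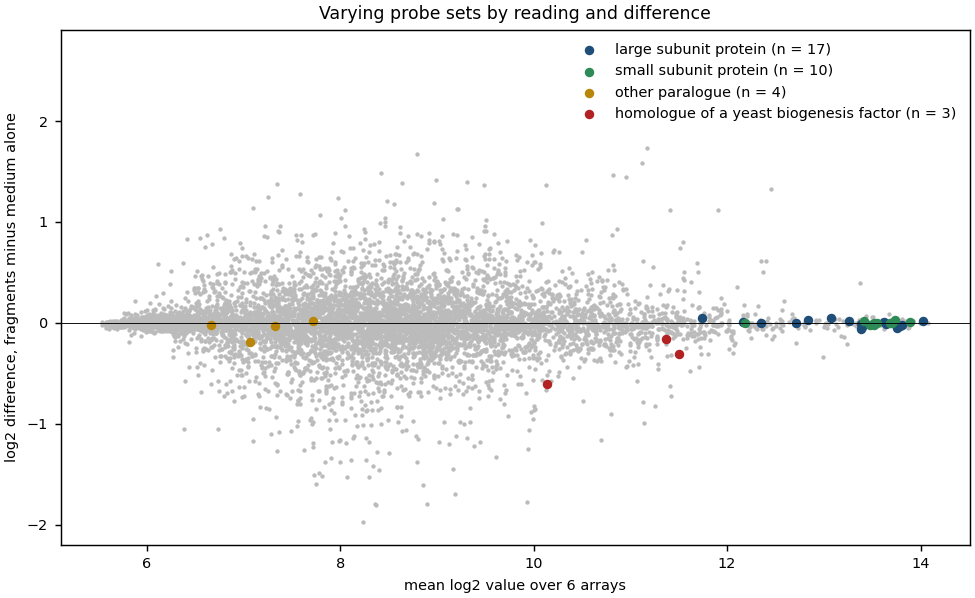
Log2 difference (fragments minus medium alone) against the mean log2 value over 6 arrays for the 7241 varying probe sets (grey), with the 34 varying genes described here in colour. The structural genes sit within 0.060 of 0 at the right of the plot, and the 3 homologues of assembly factors lie below 0, between -0.16 and -0.60.

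For the stalk of the large subunit, which recruits the translation factors, the transcript readings of all 3 measured genes were steady on the deposited scale. RpLP1, a stalk protein and the brightest of the 41 genes, read 14.024, 14.053 and 13.978 in medium alone and 14.026, 14.044 and 14.038 with fragments. RpLP2, its partner, read 13.792, 13.798 and 13.860 in medium alone and 13.798, 13.787 and 13.793 with fragments. RpLP0, the protein that anchors both to the ribosome, read 13.416, 13.402 and 13.358, then 13.384, 13.374 and 13.378. The groups overlapped in each of the 3 genes, and the log2 differences were 0.018, -0.024 and -0.013 (limma adjusted p = 0.857, 0.799 and 0.865).

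RpL32, known as rp49 and widely used as the reference gene in Drosophila quantitative PCR, read 13.416, 13.385 and 13.446 in medium alone and 13.374, 13.364 and 13.392 with fragments. Its groups overlapped only through the arrays reading 13.385 and 13.392. The difference was -0.039, with a limma 95% interval of -0.092 to 0.014 (adjusted p = 0.596). RpL32 was named for that use, as RpS12, RpS27A and RpL40 were for their roles.

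The largest differences among the structural genes belonged to proteins of the large subunit, and RpL39 and RpL41 are named here after their values were seen. RpL39, a small protein of the exit tunnel, read 13.400, 13.359 and 13.501 in medium alone and 13.415, 13.326 and 13.338 with fragments. The difference of -0.060 was smaller than the SD of its medium-alone arrays (0.073), and the groups overlapped. RpL41, the smallest ribosomal protein, differed by -0.052 (SE 0.050), also within the spread of medium alone (SD 0.079). In RpL39 and RpL41 the highest reading was that of medium-alone replicate 3.

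RpL3, which lies next to the catalytic centre, had 3 probe sets that did not move alike. The brightest read 13.085, 13.071 and 12.996 in medium alone and 13.079, 13.129 and 13.089 with fragments, a difference of 0.049 with overlapping groups. A second read 8.44, 8.41 and 8.86 in medium alone and 7.82, 8.18 and 7.80 with fragments. The fragment arrays of this second probe set all lay below those of medium alone, but the difference of -0.63 did not pass in limma (adjusted p = 0.377 in the whole-array test and 0.0934 in the test of varying probe sets). The third RpL3 probe set was flat at 6.35. The transcript forms of RpL3 that the dimmer probe sets detect were not examined. The other genes with several probe sets are RpS30, RpS29 and RpS7, and the probe sets of RpS30 and RpS29 are given after their values were seen. The second probe set of RpS30, whose protein is made as a fusion with a ubiquitin-like protein, read 8.32 on average against 13.56 for the first. Its fragment arrays also lay below those of medium alone, by 0.21, without passing (limma adjusted p = 0.324 and 0.0897), while the first differed by 0.0024. The second probe set of RpS29 read 12.92 on average and differed by 0.020 with overlapping groups, and further probe sets of RpS29 and RpS7 were flat at 5.78 and 6.86.

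By the probe set kept for each, the 11 small-subunit genes differed by -0.024 to 0.027 on the deposited scale. The limma intervals of these probe sets stayed within 1.07-fold in either direction there. RpS7, the brightest of them, read 13.901, 13.907 and 13.855 in medium alone and 13.891, 13.899 and 13.910 with fragments. RpS12, which in Drosophila is needed for the elimination of Minute cells by their neighbours, had a difference of 0.018 with overlapping groups. RpS27A, which is made as a fusion with ubiquitin, as is RpL40 of the large subunit, differed by -0.0015, and RpL40 by 0.011.

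Groups that did not overlap were found in 5 of the 27 varying structural genes, against 32% of all varying probe sets. The fragment arrays lay higher in 4, against 14.7% of all varying probe sets, namely RpS26, RpL37A, RpL17 and RpL37-1, with differences of 0.027, 0.017, 0.031 and 0.046. They lay lower in 1, RpL15, with a difference of -0.033 and readings of 13.791, 13.781 and 13.833 in medium alone and 13.780, 13.752 and 13.773 with fragments. RpS26, RpL37A and RpL17 are named after their values were seen. The smallest limma adjusted p among the structural genes was 0.486 in the whole-array test, for RpL17, and 0.454 in the test of varying probe sets, for RpL37-1. On the scale that sets each array to its hybridisation spikes, 0.26 is added to every difference of the comparison. All 30 structural genes read higher with fragments there. In limma on that scale 0 of the 41 genes passed, against 8.98% of all probe sets. Among the varying ones 0 of the 34 passed, against 20.6%. The same spike offset enters every probe set of an array. In the whole-array test on that scale RpLP0-like, RpL24-like, RpL7-like and RpS19b all had an SE of 0.139. The genes are therefore not separate in these tests, and the 0 says little about them.

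RpS18, RpL10Ab and RpL27 were flat at high readings of 13.87, 13.68 and 13.02. A flat reading occurs far above the typical flat probe set as well. On the whole array 10 of the 11528 flat probe sets read 13 or more, and these 3 genes are among them. For these genes the deposited values can show no change, whatever the transcripts did.

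**Figure D3:**
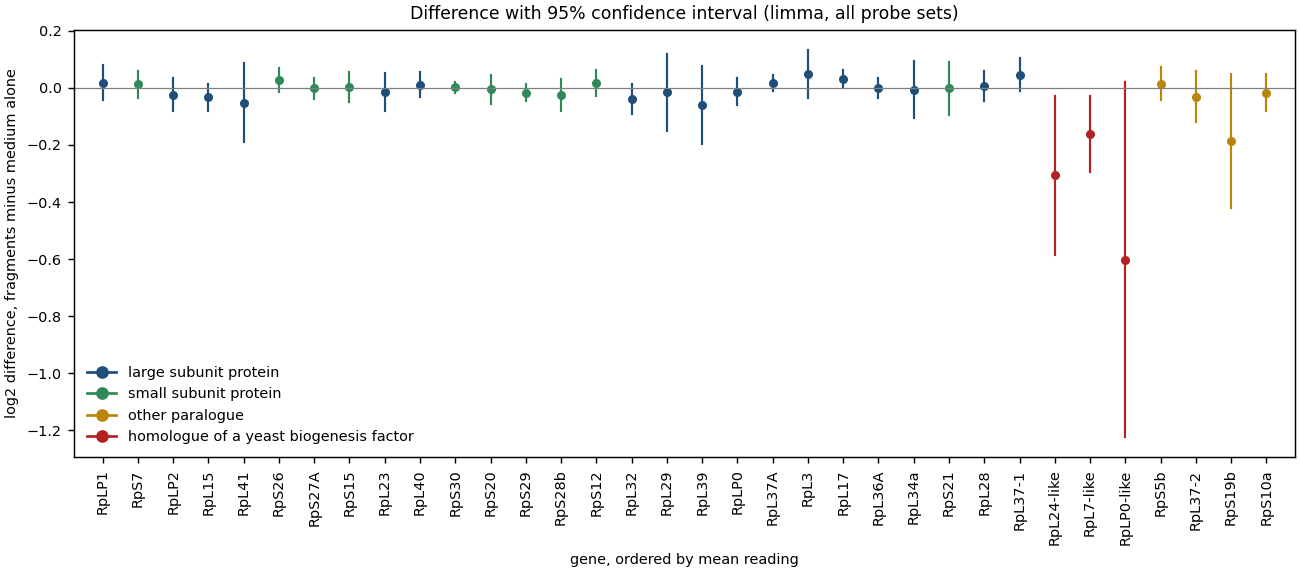
Log2 difference (fragments minus medium alone) of each of the 34 varying genes, with its limma 95% confidence interval over all probe sets, in the order of their mean readings. Every interval of a structural gene contains 0, those of RpL24-like and RpL7-like lie below 0, and that of RpLP0-like reaches from -1.22 to 0.020. On the spike scale the differences of RpL7-like and RpS19b turn positive.

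The homologues of assembly factors read lower with fragments on the deposited scale, though none passed the adjusted test. RpLP0-like read 1.52-fold lower, RpL24-like 1.24-fold and RpL7-like 1.12-fold. In all 3 the fragment arrays lay wholly below the arrays of medium alone, which is so for 17.4% of all varying probe sets. The classes were drawn with these values known, and 3 genes are too few to set against that share.

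RpLP0-like is the relative of yeast Mrt4, which holds the place of P0 on the large subunit while it is assembled and leaves before the stalk is built. It read 10.24, 10.19 and 10.88 in medium alone and 9.86, 9.71 and 9.93 with fragments. Medium-alone replicate 3 was the highest of the 6 arrays by more than 0.6 log2 units. The difference was -0.60 (SE 0.227, limma adjusted p = 0.478 in the whole-array test and 0.151 in the test of varying probe sets). Without medium-alone replicate 3 the difference was -0.38 and passed among the varying probe sets (limma adjusted p = 0.0395, where 12.1% of them passed), but not over all probe sets (0.320).

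RpL24-like is the relative of yeast Rlp24, which occupies the site of the L24 protein on the early large subunit. It read 11.65, 11.51 and 11.81 in medium alone and 11.45, 11.26 and 11.34 with fragments. The lowest array of medium alone and the highest fragment array were 0.06 apart. The difference of -0.31 (SE 0.101) reached an unadjusted limma p of 0.0374 and an adjusted p of 0.416 in the whole-array test, and 0.121 in that of varying probe sets.

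RpL7-like is the relative of yeast Rlp7, a factor in the processing of the ribosomal RNA precursor. It read 11.44, 11.39 and 11.51 in medium alone and 11.34, 11.29 and 11.23 with fragments. The difference was -0.16 (SE 0.049, limma adjusted p = 0.389 and 0.127). In this gene too medium-alone replicate 3 was the highest array.

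The 3 homologues, which are dimmer and were classed with these values known, moved more over the arrays on average than the structural genes. Averaged over the 3 homologues, the deviation from each gene's own mean was 0.11, 0.027 and 0.40 on the medium-alone arrays and -0.12, -0.25 and -0.17 on the fragment arrays. Averaged over the 30 structural genes, it stayed between -0.0098 and 0.0084 on the same arrays, with the highest value on medium-alone replicate 3 as well. Structural differences of opposite sign, 12 above 0 and 15 below, partly cancel in that average. The array that stood apart in medium alone, replicate 3, thus read highest for the homologues, and its part in the difference beyond the values without it was not tested. On the spike scale the differences of the 3 homologues were -0.34, -0.045 and 0.10, so that the direction of RpL7-like is turned there while that of the other 2 is kept.

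**Figure D4:**
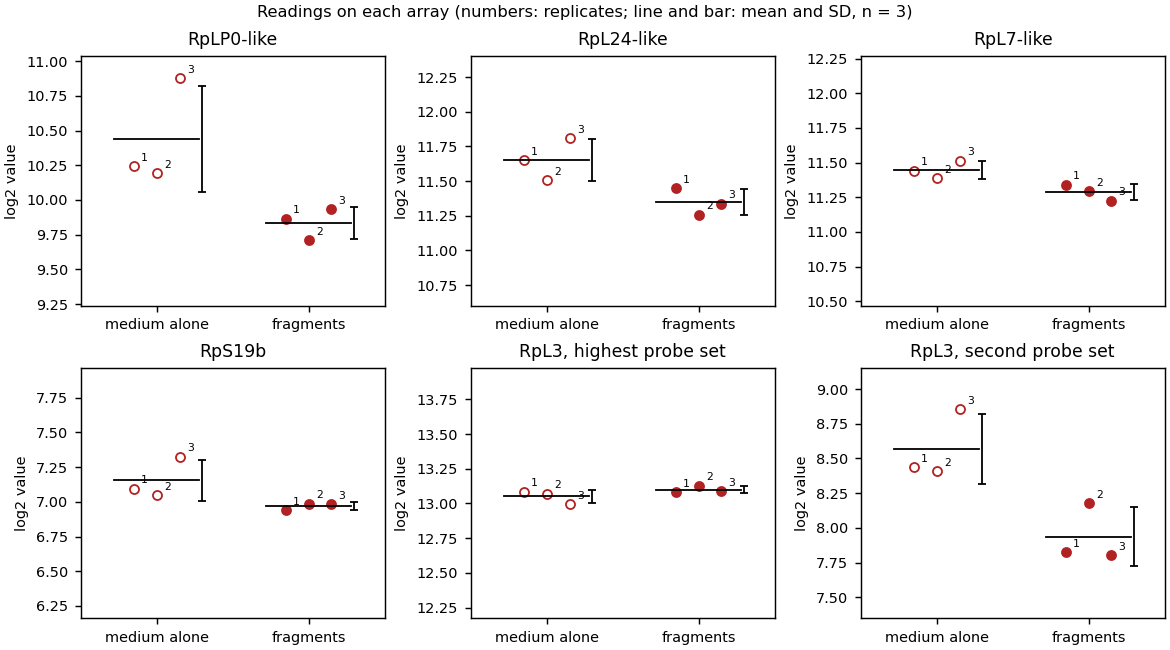
Deposited log2 value on each array (open, medium alone; filled, fragments; numbers give the replicate), with the mean and SD of each group (n = 3), for the 3 homologues of assembly factors, RpS19b and the brighter 2 probe sets of RpL3. Each vertical axis spans the same 1.8 log2 units. Medium-alone replicate 3 is the highest array in every panel except that of the brightest RpL3 probe set, where it is the lowest. On the spike scale the differences of RpL7-like and RpS19b turn positive.

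The second copies read low on every array. All 8 had mean readings between 6.13 and 7.72, below the 75th percentile of all probe sets (7.87), and 4 of them (RpS28a, RpL10Aa, RpL22-like and RpS28-like) were flat at 7.05, 6.58, 6.13 and 6.13. RpL22-like is known in Drosophila from the male germ line, and RpS5b, RpS10a and RpS19b from germ cells of the gonads. RpS5b read 7.726, 7.705 and 7.715 in medium alone and 7.735, 7.761 and 7.691 with fragments, and RpS10a 6.679, 6.672 and 6.664, then 6.688, 6.665 and 6.609. The groups of both overlapped.

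RpS19b was the only 1 of the 4 varying second copies whose groups did not overlap, which is so for 32% of all varying probe sets. Its fragment arrays lay lower, as in 17.4% of them, and 4 genes are too few to set against these shares. RpS19b read 7.09, 7.05 and 7.32 in medium alone and 6.94, 6.99 and 6.98 with fragments. The difference of -0.19 (SE 0.085) did not pass (limma adjusted p = 0.574 in the whole-array test and 0.237 in that of varying probe sets). It was -0.10 without medium-alone replicate 3 and 0.076 on the spike scale. The 8 measured germ-line markers did not move alike. Among the varying probe sets zpg, a gap junction gene, fell by 1.97 and bam, a differentiation factor, rose by 0.91 (limma adjusted p = 0.0116 and 0.0224), and neither passed over all probe sets (0.121 and 0.181). Of the others bgcn and otu were flat, and aub, ovo, osk and vas differed by 0.40, 0.15, 0.17 and -0.075 without passing. Changes of opposite sign cancel in the summed reading of the 8, which ran from 54.9 to 55.9 in medium alone and from 55.0 to 55.2 with fragments. The part of germ-line transcripts in these readings was not tested.

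Both members of a pair were measured for 4 families, and that of RpLP0-like and RpLP0 sets an assembly-factor homologue beside a ribosomal protein. A difference between members was taken within each array, first minus second. Its shift from medium alone to fragments was tested by exact two-sided permutation over the 6 arrays, where 0.1 is the smallest possible p. Of 6 pairs, 4 held a varying probe set and were tested.

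RpLP0-like minus RpLP0 was -3.17, -3.21 and -2.48 in medium alone and -3.52, -3.66 and -3.45 with fragments. The groups did not overlap, and the shift of -0.59 reached the smallest possible p of 0.1 (exact permutation, 0.4 adjusted over the 4 pairs). Without medium-alone replicate 3 the shift was -0.35.

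RpL37-2 minus RpL37-1, the pair whose older names are RpL37b and RpL37a and which is distinct from RpL37A, was -4.36, -4.43 and -4.34 in medium alone and -4.41, -4.51 and -4.45 with fragments. The groups overlapped, and the shift of -0.077 had an exact permutation p of 0.2 (adjusted 0.4). RpL37-2 alone read 7.35 ± 0.026 (SD, n = 3) in medium alone and 7.31 ± 0.051 with fragments. For RpS28a and RpS28-like against RpS28b the shift was 0.024 in each, with an exact permutation p of 0.4. As both first copies are flat, these shifts are the change of RpS28b with its sign turned, and the 2 tests are not separate. RpL10Aa and RpL10Ab were both flat, with a constant difference of -7.10, and could show no shift, and the same holds for RpS28a against RpS28-like. RpL34a, whose second copy is not analysed here, read 12.356 ± 0.053 in medium alone and 12.349 ± 0.036 with fragments.

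Other genes of ribosome production were set beside the ribosomal proteins. Of 23 measured ribosome biogenesis genes, which act in ribosomal RNA transcription, modification and subunit assembly, 0 passed limma in either test. On the whole array 0.304% of all probe sets and 6.85% of the varying ones passed. At an unadjusted limma p under 0.05 there were 6 of the 22 varying genes, all lower with fragments, against 23.6% of all varying probe sets. The median log2 difference of the list was -0.13 (0.13 on the spike scale), and it was -0.058 without fragments replicate 2, -0.069 without medium-alone replicate 3 and -0.079 without medium-alone replicate 1. In 9 of 22 varying members the fragment arrays lay wholly below medium alone, against 17.4% of all varying probe sets. None lay wholly above. Medium-alone replicate 3 was the highest of the 6 arrays in 14 members.

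The 3 members of smallest p were bys, Fib and Nop10. For bys, the Drosophila bystin, a factor of small-subunit assembly, the readings were 9.24, 9.14 and 9.56 in medium alone and 8.44, 8.77 and 8.79 with fragments. Fib, the fibrillarin that methylates ribosomal RNA, read 11.14, 11.07 and 11.32, then 10.75, 10.70 and 10.94. Nop10, a subunit of the particles that make pseudouridine in ribosomal RNA, read 11.00, 11.05 and 11.72, then 10.28, 10.25 and 10.53. In each of the 3 the groups were apart, and the log2 differences were -0.65, -0.38 and -0.90 (limma adjusted p = 0.326, 0.337 and 0.339 in the whole-array test, and 0.0712, 0.0801 and 0.0769 in that of varying probe sets). On the spike scale Nop10 passed, lower by 0.64 with fragments, in the whole-array test (adjusted p = 0.000135) and among the varying probe sets (0.00132), where 8.98% and 20.6% of the probe sets passed. With probe sets of a range under 0.1 counted as flat, bys and Nop10 passed among the varying ones (adjusted p = 0.0411 and 0.0422, where 9.24% passed).

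Without medium-alone replicate 3, Nop10, NHP2 and Non1, 3 of the 22 varying members, passed among the varying probe sets, against 12.1% of all of them. Their differences were then -0.67, -0.28 and -0.38 (limma adjusted p = 0.0178, 0.0288 and 0.0481). With all 6 arrays NHP2 differed by -0.58 and Non1 by -0.19 (adjusted p = 0.262 and 0.587). NHP2, a partner of Nop10 in the same particles, and Non1, a nucleolar GTPase, were named after these values were seen. The gene eIF6, whose product keeps the new large subunit from joining the small one, read 1.43-fold lower with fragments without passing (adjusted p = 0.474 and 0.150) and is named likewise.

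Of 28 measured translation factors, 0 passed the whole-array limma test, against 0.304% of all probe sets. The smallest adjusted p in that test was 0.169, and 3 reached an unadjusted p under 0.05, against 10.8% of all probe sets. Among the 24 varying ones 2 fell, eIF5B and eIF3l, against 4.56% of all varying probe sets. eIF5B, the GTPase that joins the subunits, read 11.00, 10.96 and 11.00 in medium alone and 10.78, 10.70 and 10.81 with fragments (difference -0.22, limma adjusted p = 0.0381 among the varying probe sets). eIF3l, a subunit of the initiation factor that binds the small subunit, read 11.13, 11.09 and 10.90, then 10.71, 10.62 and 10.62 (difference -0.39, adjusted p = 0.0405). The groups did not overlap in either gene. With 1 array left out their adjusted p ran from 0.0486 to 0.131 for eIF5B and from 0.00674 to 0.155 for eIF3l, and only without medium-alone replicate 3 did both still pass, together with eIF3h (adjusted p = 0.579 with all arrays). The call of eIF5B also ended with an intensity trend in limma (0.0550) and with the flat range under 0.1 (0.0738). The factor gene next in order of p, eIF2beta, differed by 0.068 and did not pass (0.227). The median of the list was -0.033, -0.053 to -0.011 with 1 array left out, and 0.23 on the spike scale, where neither gene passed.

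**Figure D5:**
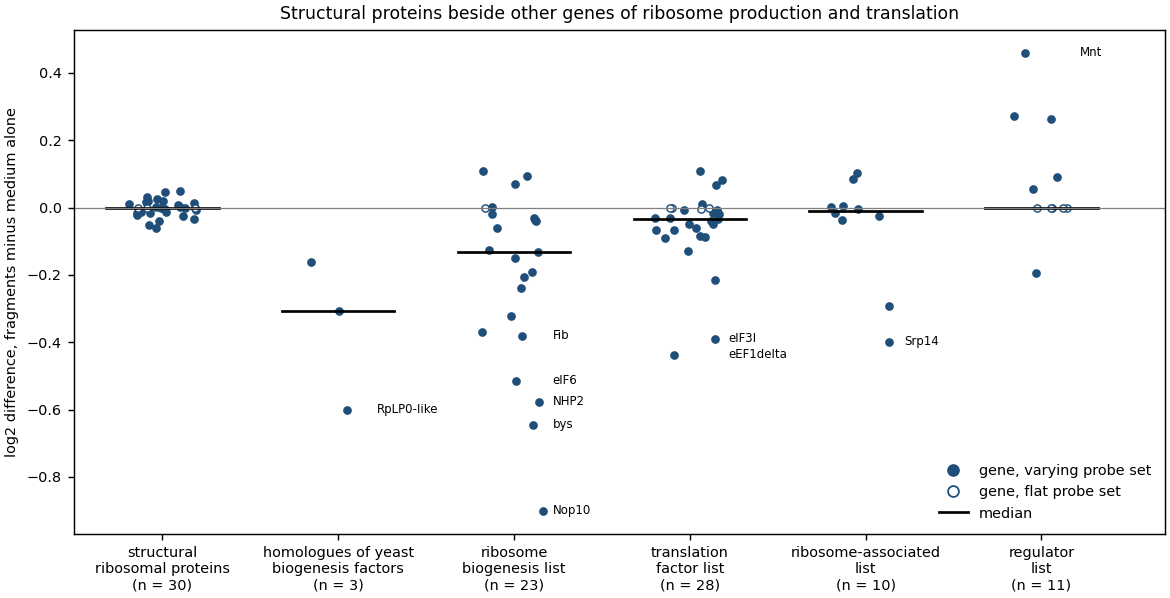
Log2 difference (fragments minus medium alone) of each gene in the structural class, the homologues of assembly factors and 4 lists of related genes, with the median of each as a bar. Structural genes lie within 0.060 of 0, while the homologues reach -0.60 and the ribosome biogenesis list, with a median of -0.13, reaches -0.90 for Nop10. On the spike scale 0.26 is added to every point, and the median of the biogenesis list becomes 0.13.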

How the data were processed

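The deposited values are 1 log2 value per probe set and array. Per the labels, 150 ng of total RNA went into the biotinylated cRNA. The submitters' processing notes name R 2.7.2. How the authors summarised and normalized probes is unknown here. The values were used as deposited, without 183 control probe sets. Groups came from the sample titles. Gene symbols came from the array annotation (13647 probe sets with 1 symbol, 402 with several, 4720 with none), and all 41 genes described were found in RefSeq (Release 6 plus ISO1 MT) with the same symbol. Fragments were compared with medium alone in R 4.3.3 by limma 3.58.1 (two-sided moderated test, Benjamini-Hochberg over all probe sets, then over those with a range of at least 0.01). The fit was tested on simulated data. Precision is limited by the number of arrays. The genes and lists were chosen with earlier results of these data known, and the 3 classes after their values were seen. Named were paralogues, the 5 brightest and 5 dimmest genes, genes whose probe sets differed by over 0.5, and the 3 of smallest p per list. Alternatives were the scale (quantile, spikes), a replicate block, the choice of probe set, an intensity trend, the flat range and leaving out each array.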

Additional observations from a re-analysis of the deposited data

How the results depend on the processing

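No gene of the 41 passed under the alternatives over all probe sets, where 0% to 8.98% of the whole array passed. With 1 array left out at most 0.0426% of it passed, so the 0 there says little about these genes. The 0 on the spike scale says little about them either, as 1 offset per array enters every probe set. Among the varying probe sets the count was 0 to 1 with 1 array left out, and 0 under the others. The 1 was RpLP0-like without medium-alone replicate 3 (-0.38, limma adjusted p = 0.0395). Of all varying probe sets 1.78% to 12.1% passed with 1 array left out, and 6.2% to 20.6% under the others. The median difference moved from -0.00061 to 0.26 on the spike scale and to -0.0059 both without flat genes and without probe sets of ambiguous suffix, and was -0.0046 to 0 with 1 array left out. RpL3 itself differed by -0.63 without probe sets of ambiguous suffix and by -0.19 as the mean of its probe sets. It passed in neither (limma adjusted p = 0.394 and 0.392 over all probe sets). Mean spike readings were 10.65 ± 0.16 (SD, n = 3) in medium alone and 10.38 ± 0.11 with fragments. All 4 shifts within pairs kept their direction with quantile normalization and with 1 array left out, and those of the RpS28 pairs are not separate. The replicate block and the mean over probe sets could not turn a shift, as both leave these shifts as they are. The shift of RpLP0-like against RpLP0 ran from -0.72 to -0.35 with 1 array left out.

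The replicate numbers were also fitted as a block. Deviations of same-numbered arrays from their group means correlated at 0.442, 0.038 and 0.375 over the varying probe sets. Medium-alone replicates 1 and 3 correlated best with the fragment array of their own number, and replicate 2 with fragment replicate 1 (0.463). With 3 arrays per group these values cannot decide whether the numbers mark pairs, and the main tests leave the arrays unpaired. With the replicate block 0 of the 41 genes passed in either test, and the whole array had 0 calls in the test of all probe sets and 449 in that of varying ones. The block leaves each difference as it is, so the median of -0.00061 could not move. The same holds for the shift of RpLP0-like against RpLP0, -0.59 (exact sign-flip permutation p = 0.25, the smallest possible). Under the block the varying-probe calls of eIF5B and eIF3l ended (limma adjusted p = 0.0635 and 0.0512), and Fib and Nop10 passed, lower with fragments (0.0274 and 0.0468).

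The number of arrays limits all values, and readings of different probe sets are not on 1 scale of transcript amount.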

Other observations

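Among 10 genes for ribosome-associated proteins, 0 passed limma in either test, against 0.304% of all probe sets and 6.85% of the varying ones. At an unadjusted limma p under 0.05 there were 0 in either test, against 10.8% and 23.6%. The list is too short to set against the adjusted shares. The brightest of them barely moved. Rack1, the scaffold protein bound to the small subunit, differed by 0.0060 at a mean reading of 13.46, and Tctp by 0.00084 at 13.34. Subunits of the signal recognition particle had the smallest p. Srp14 read 8.98, 8.99 and 9.71 in medium alone and 8.76, 8.78 and 8.93 with fragments, with medium-alone replicate 3 the highest array, and Srp19 and Srp72 differed by -0.29 and -0.016 (limma adjusted p = 0.677, 0.712 and 0.690 for the 3 genes).

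Of 11 measured regulators of ribosomal protein genes, 5 of them flat, 0 passed in limma, against 0.304% of all probe sets and 6.85% of the varying ones. Among the 6 varying regulators 1 reached an unadjusted limma p under 0.05, against 23.6% of all varying probe sets. That was Mnt, the repressor partner of Max and antagonist of Myc, which read 7.86, 7.72 and 7.25 in medium alone and 8.14, 7.98 and 8.08 with fragments (difference 0.46, adjusted p = 0.520 in the whole-array test and 0.180 in that of varying probe sets). Dref, a transcription factor of growth and replication genes, and Irbp18, a partner of the factor induced in Minute cells, differed by -0.19 and 0.27 (adjusted p = 0.637 and 0.656).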
